A study of Mus musculus with 4 samples.

Results

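Histone lysine methyltransferases and the demethylases of the Jumonji C (JmjC) family were examined in the hippocampus of Lsd1 knock-in (KI) mice and wild type (WT) mice. The set held 37 genes, chosen by symbol from a list of these enzymes, 22 lysine methyltransferase genes and 15 JmjC genes, out of 26328 genes listed in at least 1 sample. Each symbol matched 1 Ensembl gene, and all 37 genes were listed in every sample. RNA-seq of poly(A) RNA was performed on 2 WT and 2 Lsd1 KI samples, all from the hippocampus of male C57BL/6 mice. In the KI line a serine of LSD1 that is phosphorylated by PKCα is replaced with alanine in every cell that expresses the gene, and the WT mice carry the unmodified allele. The age of these mice at tissue collection and the number of mice in each sample are not given in the sources used here, so p-values measure only the spread between these samples. The values are RPKM, the reads of a gene divided by its exon length and by the mapped reads of the sample, so that levels of different genes can be compared per length.

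Lysine methyltransferases transfer methyl groups to histone lysines, most of them through a SET domain, and JmjC enzymes remove them in a reaction that uses iron and 2-oxoglutarate. LSD1 removes mono- and dimethyl groups by a flavin-dependent reaction and cannot act on trimethylated lysine, for which the JmjC enzymes are the known demethylases. Methylation of H3K4 is found at active promoters and enhancers, that of H3K36 and H3K79 in transcribed genes, and that of H3K9 and H3K27 in repressed chromatin. Loss of several of these enzymes causes intellectual disability syndromes in humans.

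The mRNA of Kdm1a, which encodes LSD1, was at 11.6 and 11.2 RPKM in the WT samples and at 11.0 and 11.2 RPKM in the KI samples (log2 fold change -0.04, SE 0.06, adjusted p = 0.872, limma). The knock-in replaces a codon, which RPKM values cannot show, so this value does not check the labels.

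The mapped reads of each sample were recovered from the whole-read steps of the values and ranged from 8827967 in WT replicate 2 to 14949756 in KI replicate 2. The values of all 37 genes in the 4 samples gave whole reads within 0.001, from 41 to 4243 reads with a median of 910.5. For 18 genes the exon length behind the values equals the annotated one, and for the other 19 the shortest length that gives whole reads was used, so that their reads are lower limits. Markers of hippocampal pyramidal and granule neurons were present, with a summed level of 1140 to 1205 RPKM over 7 genes and no marker under 10.2 RPKM. In bulk tissue, fewer cells of a type and less RNA per cell cannot be told apart.

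Promoters of 3 genes are shown because these genes carry the contrasts on which the results turn. Kmt2a is a CpG-binding enzyme with lower values in both KI samples, Ezh1 had the smallest p of the set, and Ezh2 is the paralog of Ezh1 with values on the opposite side. Each sequence covers 300 bases around the transcription start given by RefSeq on GRCm38.p6, written from 5′ to 3′ on the coding strand with CpG dinucleotides in capitals. Kmt2a (ENSMUSG00000002028) lies on chr9:44803355-44881296, Ezh1 (ENSMUSG00000006920) lies on chr11:101191115-101226463 and Ezh2 (ENSMUSG00000029687) lies on chr6:47530139-47595341 of GRCm38, all on the minus strand.
Kmt2a promoter (chr9:44881240-44881539, minus strand): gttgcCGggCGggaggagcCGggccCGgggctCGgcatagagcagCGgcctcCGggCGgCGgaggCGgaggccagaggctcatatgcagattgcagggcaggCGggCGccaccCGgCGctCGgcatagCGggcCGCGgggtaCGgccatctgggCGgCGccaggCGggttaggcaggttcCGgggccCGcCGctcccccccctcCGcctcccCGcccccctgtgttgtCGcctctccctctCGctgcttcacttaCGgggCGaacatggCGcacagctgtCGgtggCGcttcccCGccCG
Ezh1 promoter (chr11:101226414-101226713, minus strand): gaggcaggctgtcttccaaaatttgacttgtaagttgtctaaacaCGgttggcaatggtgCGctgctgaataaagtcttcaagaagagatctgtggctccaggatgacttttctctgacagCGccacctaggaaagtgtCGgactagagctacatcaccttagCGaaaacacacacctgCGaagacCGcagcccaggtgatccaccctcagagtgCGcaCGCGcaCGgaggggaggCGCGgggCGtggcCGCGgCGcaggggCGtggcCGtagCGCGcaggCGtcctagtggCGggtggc
Ezh2 promoter (chr6:47594981-47595280, minus strand): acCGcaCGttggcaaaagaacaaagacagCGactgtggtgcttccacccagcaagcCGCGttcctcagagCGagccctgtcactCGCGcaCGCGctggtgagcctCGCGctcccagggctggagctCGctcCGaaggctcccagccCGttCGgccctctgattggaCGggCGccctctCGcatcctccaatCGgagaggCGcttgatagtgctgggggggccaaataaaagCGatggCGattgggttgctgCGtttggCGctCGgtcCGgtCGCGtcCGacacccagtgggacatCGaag

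These windows hold 36 CpG dinucleotides in Kmt2a, 23 in Ezh1 and 31 in Ezh2. Of the 37 genes, 26 had a promoter entry, with 13 to 63 CpG dinucleotides and a median of 29.5, against a median of 7 over the 27025 genes with an entry. The GC box GGGCGG, searched on both strands, was found in 20 of the 26 members (76.9%) and in 38.2% of all genes with an entry. The E-box CACGTG, its own reverse complement, was found in the promoters of Ehmt2 and Kdm4c (7.69% of the 26) and in 8.09% of all genes. The genes with an entry were not limited to protein-coding genes or to genes expressed here, whereas all 26 members were expressed. A comparison with like genes was not made. A match of letters is a description of the window and not a binding site.

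Levels of the 37 genes spanned a 36.5-fold range. The median of the gene means was 9.55 RPKM, against 7.10 RPKM for the protein-coding genes tested, and 26 of the 37 genes reached 5 RPKM. Ehmt2, which encodes the H3K9 methyltransferase G9a, was the highest at 38.0 and 41.0 RPKM in WT and 40.7 and 40.5 RPKM in KI, the 91.3 percentile of protein-coding genes. Setd7 and Kmt2e followed, with means over the 4 samples of 31.5 and 23.3 RPKM. The lowest gene was Ezh2 with a mean of 1.10 RPKM, followed by Setdb2 with 1.11 RPKM and Suv39h2 with 1.51 RPKM. All 37 genes passed the expression filter of 0.5 RPKM in at least 2 samples.

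**Figure D1:**
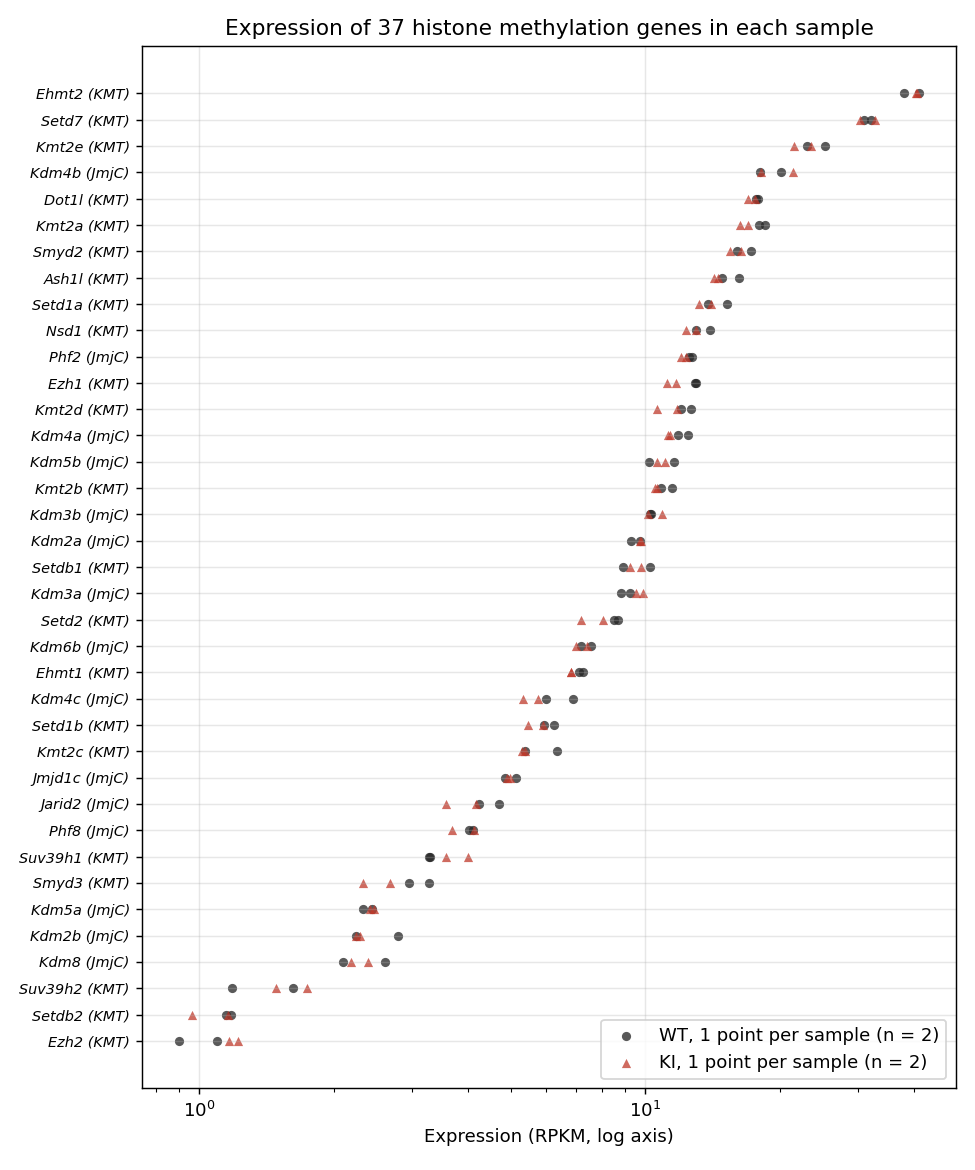
Expression of each of the 37 genes in each sample in RPKM on a log axis, with WT samples as black circles and KI samples as red triangles, ordered by mean level (KMT, lysine methyltransferase gene). Ehmt2 lies highest and Ezh2 lowest, and for most genes the distance between genotypes is small beside the distance between genes.

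To examine whether the knock-in altered the expression of these enzymes, KI was compared with WT by limma on log2(RPKM + 1) over all 18436 genes that passed the filter. None of the 37 genes met the call rule, an adjusted p below 0.1 together with a difference of 1.2-fold or more, and neither did any of the genes tested (0.0%). The paper, with edgeR at an FDR of 10% and at least 1.5-fold, reported genes that differed between KI and WT. That test was not run here, so the reason for the absence of calls was not tested. The smallest adjusted p among the 37 was 0.492. Without adjustment, limma gave a p under 0.05 to 1 of the 37 genes, Ezh1, which was lower in KI, against 3.33% of all genes tested on the lower side, 6.3% on the higher side and 9.62% in either direction. The log2 fold changes ran from -0.23 to 0.16, and the ratio of mean RPKM lay within 10% of equality for 29 of the 37 genes. The 95% intervals of the log2 fold change, which are not adjusted for the number of genes, reached 0.14 to 0.37 to either side of the estimate. On the scale of RPKM + 1 they lay within 1.5-fold in either direction for all 37 genes. For genes of low RPKM, such as Ezh2, Suv39h2 and Smyd3, the same interval is a wider fold of RPKM itself.

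The direction of the differences was counted next. Both KI values lay below both WT values in 15 of the 37 genes (40.5%), against 18.1% of all genes tested, and above them in 3 (8.11%), against 24.0%. The median log2 fold change of the 37 genes was -0.06, against 0.01 over all genes tested. Of the methyltransferase genes, 11 of 22 were below in both KI samples and 2 were above, with a median log2 fold change of -0.08. The JmjC genes had 4 of 15 below and 1 above, with a median of -0.02. With WT replicate 2, the sample of lowest depth, left out, 23 genes lay below and 7 above, against 31.0% and 39.1% of all genes tested, since only 3 values then have to be separated. Without WT replicate 1, 19 lay below and 8 above, against 33.6% and 38.1%. Without KI replicate 1 the counts were 20 and 5, against 30.5% and 39.6%, and without KI replicate 2 they were 20 and 8, against 33.8% and 37.9%.

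Exon length moved with this pattern. The 37 genes are long, with a median exon length of 9184 bp against 4440 bp for the protein-coding genes tested, and 32 of them have exons of 5 kb or more. Among all protein-coding genes tested, the share with both KI values below both WT values was 11.7% for exons under 2 kb, 15.1% for 2 to 5 kb, 22.6% for 5 to 10 kb and 34.0% for 10 kb or more. Of the members, 0 of 5 lay below in the class of 2 to 5 kb, 9 of 17 in the class of 5 to 10 kb and 6 of 15 in the longest class. These lengths are of the annotation, and by the shortest lengths that fit the values the last 2 classes hold 20 and 11 members, with 9 and 6 below. The median log2 fold change in the longest class was -0.03 for all 1356 protein-coding genes and -0.08 for the 15 members. When each sample was centred on the protein-coding genes with exons of 5 kb or more, a setting chosen after seeing the data, 11 members lay below (29.7%) and 4 above (10.8%), against 16.3% and 26.1% of all genes tested. The part of exon length in the lower values of these genes was not tested.

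**Figure D2:**
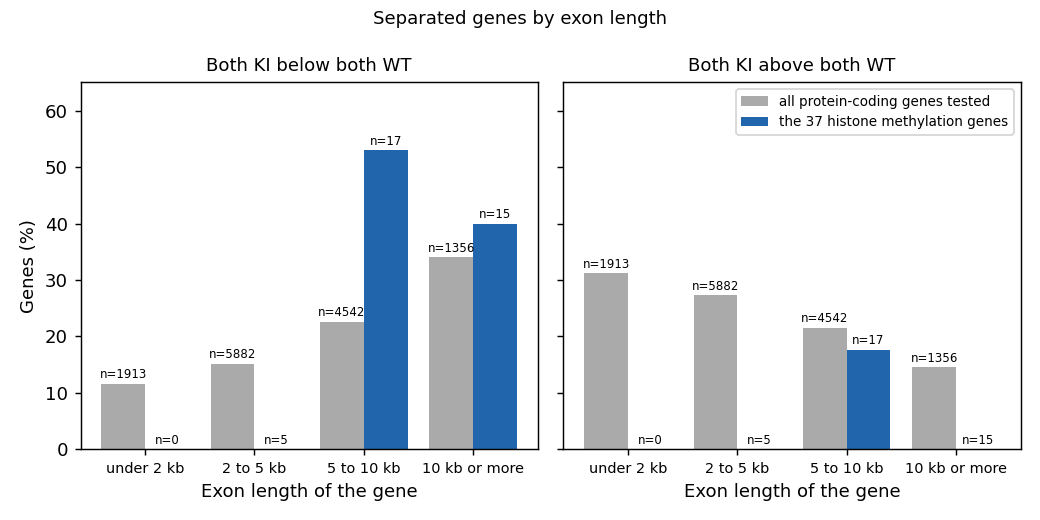
Percentage of genes whose KI values both lay below (left) or above (right) both WT values, in classes of exon length, for all protein-coding genes tested (grey) and for the 37 histone methylation genes (blue), with the number of genes on each bar. The grey bars climb from 11.7% to 34.0% on the left and descend from 31.2% to 14.5% on the right as exons lengthen.

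Markers of other cells were summed in the same samples. The pyramidal and granule neuron list, over all 7 markers, was at 1200 and 1205 RPKM in WT and 1140 and 1142 RPKM in KI, so that both KI values were lower. Camk2a and Slc17a7 make up most of this sum, and both KI values lay below both WT values in 4 of the 7 genes, with overlap in the other 3 (Rbfox3, Wfs1 and Fibcd1). Of the 4, Prox1, a transcription factor of dentate granule cells, was at 17.3 and 16.9 RPKM in WT and at 10.2 and 13.1 RPKM in KI (adjusted p = 0.405, limma). The 4 endothelial markers were at 46.7 and 53.4 RPKM in WT and at 56.5 and 63.4 RPKM in KI, with 3 of the 4 genes above in both KI samples. Of the 5 markers of neighbouring neocortex, thalamus and striatum, 4 passed the filter. The 5 summed to 17.1 and 16.6 RPKM in WT and 20.3 and 20.2 RPKM in KI. Both KI values lay above in the 4 genes that passed and below in the other gene. Ppp1r1b gave most of this sum, with means of 12.96 RPKM in WT and 14.52 RPKM in KI. Drd2, also in this list, had means of 1.27 RPKM in WT and 2.49 RPKM in KI. The paper reports higher Drd2 in KI by RNA-seq and qRT-PCR, and in cultured hippocampal neurons given a PKCα inhibitor. Whether the higher Drd2 here came from neighbouring tissue was not tested. The choroid plexus and ependyma list of 4 genes, 3 of which passed the filter, stood apart in KI replicate 1, at 63.6 RPKM against 17.4 to 22.2 RPKM in the other samples, of which Ttr gave 51.3 RPKM. In that list Kl was at 4.87 and 5.14 RPKM in WT and at 7.05 and 6.72 RPKM in KI (adjusted p = 0.340, limma). No marker of any list was missing from all 4 samples. Astrocyte markers (5 genes) summed to 202.9 and 203.75 RPKM in WT and 203.83 and 210.6 RPKM in KI. Of these, 3 genes lay above in both KI samples, 1 (Aqp4) lay below and 1 overlapped. Oligodendrocyte precursor markers (2 genes) summed to 11.30 and 11.26 RPKM in WT and 11.65 and 11.70 RPKM in KI, with 1 gene above and 1 overlapping. Both sums were slightly higher in KI, that of the astrocytes by a narrow margin. Ranges of the oligodendrocyte (717 to 949 RPKM, 5 genes), microglia (93.4 to 102 RPKM, 5 genes) and interneuron lists (80.6 to 90.5 RPKM, 3 genes) are over all 4 samples, and in these 3 lists the sums of the groups overlapped. By gene, all 5 oligodendrocyte markers overlapped. Of the microglia markers 2 lay above in both KI samples, 1 lay below and 2 overlapped. Of the interneuron markers 1 lay above and 2 overlapped. Both ends of the oligodendrocyte range came from KI, at 949 RPKM in replicate 1 and 717 RPKM in replicate 2. Wfs1 also differed between the KI samples, at 28.6 and 50.9 RPKM against 42.2 and 41.2 RPKM in WT. The part of these cell types in the values of the 37 genes was not tested.

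The H3K4 methyltransferases and their relative Kmt2e had 8 of 9 log2 fold changes below 0 (all 9 under median-of-ratios or quantile scaling, where Setd7 turned), as had 8408 of the 18436 genes tested. Both KI values lay below both WT values in 5 of the 9, against 18.1% of all genes tested. All 9 have annotated exons of 5 kb or more, and of protein-coding genes of that length 22.6% to 34.0% lay below. Kmt2a, which trimethylates H3K4 at CpG-rich promoters, was at 18.6 and 18.0 RPKM in WT and at 16.3 and 17.0 RPKM in KI (log2 fold change -0.13, SE 0.06, adjusted p = 0.550, limma). The groups did not overlap, on 2646 to 4243 reads per sample. Its closest relative Kmt2b was at 10.8 and 11.5 RPKM in WT and at 10.5 and 10.6 RPKM in KI. Kmt2a stood above Kmt2b by 1.71-fold and 1.57-fold in WT and by 1.55-fold and 1.60-fold in KI, with overlapping groups.

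Kmt2d, which monomethylates H3K4 at enhancers, was at 12.7 and 12.0 RPKM in WT and at 10.6 and 11.8 RPKM in KI (log2 fold change -0.13, SE 0.07, adjusted p = 0.633, limma). Fits without 1 of the samples gave -0.20 to -0.06. Its paralog Kmt2c was at 6.33 and 5.38 RPKM in WT and at 5.30 and 5.38 RPKM in KI. The WT samples of Kmt2c differed from each other by more than WT replicate 2 differed from the KI samples. Setd1a and Setd1b, catalytic subunits of the complexes that deposit most H3K4 trimethylation, were counted next. Setd1a was at 13.8 and 15.2 RPKM in WT and at 13.2 and 14.0 RPKM in KI, but the annotated gene Gm49388 on the same strand shares 51.9% of its exon bases. Setd1b was at 5.92 and 6.23 RPKM in WT and at 5.90 and 5.47 RPKM in KI. Setd1a was 2.24 to 2.57 times as high as Setd1b in the 4 samples, with overlapping groups.

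Smyd3, whose product methylates cytoplasmic and histone substrates, had the largest difference of the set in size. It was at 2.94 and 3.27 RPKM in WT and at 2.32 and 2.68 RPKM in KI, a ratio of means of 0.806 (log2 fold change -0.23, SE 0.10, adjusted p = 0.557, limma). It was the only member whose ratio of mean RPKM reached 1.2-fold, and it rested on 241 to 335 reads per sample. Setd7, which monomethylates H3K4 and other proteins, was at 32.1 and 30.9 RPKM in WT and at 32.8 and 30.3 RPKM in KI, with KI on either side of WT. Kmt2e, which lacks known methyltransferase activity, was at 25.2 and 23.0 RPKM in WT and 23.5 and 21.5 RPKM in KI, and its groups overlapped.

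The 6 H3K9 methyltransferases were divided, with 3 log2 fold changes below 0 and 3 above, though Setdb1 turned to 0.0018 after centring on long genes. Suv39h1, which trimethylates H3K9 in pericentromeric heterochromatin, was at 3.30 and 3.27 RPKM in WT and at 3.58 and 4.01 RPKM in KI, a ratio of means of 1.16 (log2 fold change 0.16, SE 0.09, adjusted p = 0.612, limma). Both KI samples were higher, on 152 to 316 reads per sample. An antisense gene covers 14.6% of the exon bases of Suv39h1, and the library kit named in the labels does not mark strand, so reads of the pair cannot be told apart. Suv39h2 was at 1.62 and 1.18 RPKM in WT and at 1.48 and 1.74 RPKM in KI, and rested on 46 to 115 reads.

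Ehmt1, the partner of G9a in the complex that mono- and dimethylates H3K9, was at 7.10 and 7.24 RPKM in WT and at 6.81 RPKM in both KI samples. Ehmt2 over Ehmt1 was 5.34 and 5.66 in WT and 5.98 and 5.96 in KI. The KI ratios thus lay above the WT ratios, with an exact permutation p of 0.333, two-sided, the smallest that 2 against 2 samples allow. Setdb1, which trimethylates H3K9 at endogenous retroviruses, was at 10.3 and 8.93 RPKM in WT and at 9.23 and 9.80 RPKM in KI. Setdb2 was at 1.18 and 1.15 RPKM in WT and at 0.962 and 1.16 RPKM in KI. Neither of the Setdb genes separated the groups.

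Ezh1 and Ezh2 are the alternative H3K27 methyltransferases of Polycomb repressive complex 2 (PRC2), of which Ezh2 prevails in dividing cells and Ezh1 in differentiated cells. Ezh1 was at 13.0 and 12.9 RPKM in WT and at 11.2 and 11.7 RPKM in KI, a ratio of means of 0.881 (log2 fold change -0.17, SE 0.06, adjusted p = 0.492, limma). The WT samples were close together and both KI samples were lower, on 849 to 1301 reads per sample. The fits that leave out a sample gave Ezh1 log2 fold changes from -0.20 to -0.14, and in all 4 of them 0 genes of the set had an unadjusted p under 0.05 in limma. Ezh2 was at 0.902 and 1.10 RPKM in WT and at 1.17 and 1.22 RPKM in KI, a ratio of means of 1.19 on only 60 to 113 reads per sample (log2 fold change 0.14, SE 0.12, adjusted p = 0.753, limma). This difference was 0.24 with a pseudocount of 0.1 and 0.06 to 0.21 in fits without 1 of the samples. Ezh1 was above Ezh2 in every sample, by 14.4-fold and 11.8-fold in WT and by 9.56-fold and 9.59-fold in KI. The groups of this ratio did not overlap, and the exact permutation p was 0.333, two-sided. Of the 11 paralog pairs compared in this way, the ratio separated the groups in 5: Ezh1 and Ezh2, Ehmt2 and Ehmt1, Smyd2 and Smyd3, Kdm2a and Kdm2b, and Kdm3b and Kdm3a. Each of these has the same exact permutation p of 0.333, the smallest possible, so none of them passes 0.05. Ratios without a difference would separate, in either direction, at this same share of 0.333. Of the single genes tested, 18.1% lay below and 24.0% above in both KI samples. The 5 of 11 pairs are near these shares and are no result about the pairs.

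Jarid2, a JmjC protein without known demethylase activity that recruits PRC2, was at 4.23 and 4.69 RPKM in WT and at 4.18 and 3.57 RPKM in KI (log2 fold change -0.16, SE 0.10, adjusted p = 0.654, limma). KI replicate 1 was almost level with WT replicate 1, and fits without 1 of the samples gave log2 fold changes from -0.26 to -0.07.

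All 4 H3K36 methyltransferases had log2 fold changes below 0, and 3 of them had both KI values below both WT values, against 18.1% of all genes tested and 22.6% to 34.0% of those with exons of 5 kb or more. Setd2, which trimethylates H3K36 behind elongating RNA polymerase II, was at 8.68 and 8.50 RPKM in WT and at 7.16 and 8.05 RPKM in KI (log2 fold change -0.16, SE 0.08, adjusted p = 0.579, limma). Fits without 1 of the samples gave Setd2 -0.23 to -0.08. Ash1l, which dimethylates H3K36, was at 16.2 and 14.8 RPKM in WT and at 14.6 and 14.2 RPKM in KI (log2 fold change -0.10, SE 0.07, adjusted p = 0.663, limma). For Setd2 most of the difference came from KI replicate 1, whereas for Ash1l it came from WT replicate 1. Nsd1, another H3K36 dimethylase, separated the groups by a narrow margin, with 13.0 RPKM in both WT replicate 2 and KI replicate 2. Its replicate 1 values were farther apart, at 14.0 RPKM for WT and 12.3 RPKM for KI. Smyd2, which also methylates p53, was at 16.1 and 17.3 RPKM in WT and at 15.5 and 16.3 RPKM in KI, with overlapping groups. Smyd2 was above Smyd3 by 5.45-fold and 5.28-fold in WT and by 6.68-fold and 6.10-fold in KI. An antisense gene shares 30.0% of the exon bases of Smyd2. Dot1l, the H3K79 methyltransferase, was at 17.7 and 17.9 RPKM in WT and at 17.6 and 17.0 RPKM in KI.

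**Figure D3:**
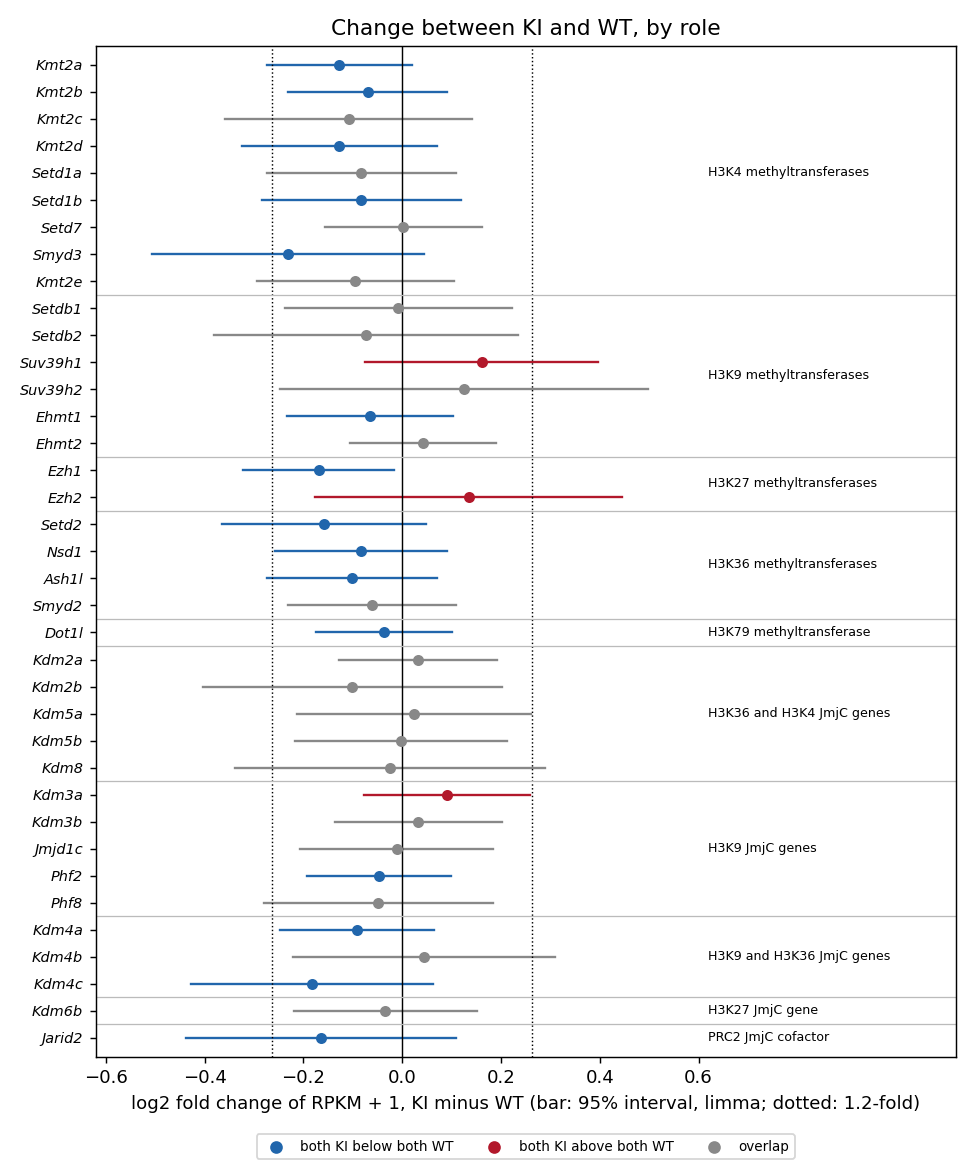
Log2 fold change of RPKM + 1 between KI and WT for each of the 37 genes, grouped by role, with the 95% interval from limma (2 samples per group), dotted lines at 1.2-fold and colours for genes whose KI values lay below, above or among the WT values. The intervals of 36 genes hold 0, Ezh1 being the exception before adjustment, and the 4 H3K36 methyltransferases lie left of 0.

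The 5 JmjC genes of the set acting on H3K4 and H3K36 showed no separation of the genotypes. This does not extend to all of their relatives outside the set. Kdm5c was at 9.16 and 10.5 RPKM in WT and at 9.03 and 8.69 RPKM in KI, both KI values being lower. Kdm5d was at 3.87 and 5.20 RPKM in WT and at 4.44 and 4.96 RPKM in KI, with overlapping groups. Kdm5a, which like Kdm5b removes di- and trimethyl groups from H3K4, was at 2.32 and 2.44 RPKM in WT and at 2.46 and 2.42 RPKM in KI. Kdm5b was at least 4.16 times as high in every sample, at 11.6 and 10.2 RPKM in WT and 11.1 and 10.6 RPKM in KI. For both genes a KI value lay within the range of WT. Kdm2a, which like Kdm2b binds unmethylated CpG and demethylates H3K36, was at 9.73 and 9.28 RPKM in WT and at 9.76 and 9.72 RPKM in KI. Kdm2b was at 2.78 RPKM in WT replicate 1, above the other 3 samples, which lay between 2.24 and 2.29 RPKM. The Kdm2a to Kdm2b ratio, 3.50 and 4.14 in WT and 4.26 and 4.34 in KI, separated the groups although neither gene did. Kdm8 was at 2.09 and 2.61 RPKM in WT and 2.39 and 2.19 RPKM in KI.

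Among the H3K9 demethylase genes, Kdm3a was the only gene of the 15 JmjC genes in the set with both KI values above both WT values. It was at 8.80 and 9.25 RPKM in WT and at 9.51 and 9.85 RPKM in KI (log2 fold change 0.09, SE 0.06, adjusted p = 0.686, limma). Kdm3b, its paralog, was 1.16 and 1.11 times as high as Kdm3a in WT and 1.07 and 1.10 times in KI. Kdm3b was at 10.2 and 10.3 RPKM in WT and at 10.1 and 10.9 RPKM in KI, and a noncoding gene on the opposite strand covers 24.6% of its exon bases. Phf2, a PHD finger protein that acts on H3K9, was at 12.5 and 12.7 RPKM in WT and at 12.0 and 12.3 RPKM in KI. Phf8, an X-linked gene mutated in human intellectual disability, had means of 4.07 RPKM in WT and 3.90 RPKM in KI. Jmjd1c had means of 4.98 and 4.93 RPKM.

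The Kdm4 enzymes demethylate trimethylated H3K9 and H3K36. Kdm4c was at 6.87 and 5.97 RPKM in WT and at 5.33 and 5.73 RPKM in KI (log2 fold change -0.18, SE 0.09, adjusted p = 0.587, limma). It ran from -0.27 to -0.10 in fits without 1 of the samples. Kdm4a was at 11.8 and 12.4 RPKM in WT and at 11.4 and 11.3 RPKM in KI (log2 fold change -0.09, SE 0.06, adjusted p = 0.661, limma). Both genes had lower values in both KI samples. They are also the only members on chromosome 4, where Kdm1a lies, with Kdm4a 18.4 Mb and Kdm4c 62.1 Mb away in GRCm38. Kdm4b was the most abundant of the family, at 18.1 and 20.2 RPKM in WT and at 21.4 and 18.2 RPKM in KI, and KI replicate 1 alone stood above WT. Kdm6b, which demethylates H3K27, was at 7.56 and 7.18 RPKM in WT and at 7.38 and 6.97 RPKM in KI.

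Summed over the 22 methyltransferase genes, expression was 276 and 274 RPKM in WT and 263 and 264 RPKM in KI. Both KI samples were thus lower in this sum, as in the sum of the 4 H3K36 methyltransferases, which was 54.9 and 53.6 RPKM in WT and 49.6 and 51.6 RPKM in KI. The H3K4 sum was 128 and 125 RPKM in WT and 120 and 119 RPKM in KI, and the H3K27 sum 13.9 and 14.0 RPKM in WT and 12.3 and 12.9 RPKM in KI. The sum of the 6 H3K9 methyltransferases lay on the other side by a narrow margin, at 61.4 and 62.73 RPKM in WT and 62.77 and 64.0 RPKM in KI. Ehmt2, whose groups overlapped, gave most of this H3K9 sum. Ezh1 alone gave most of the H3K27 sum, whereas Ezh2 was higher in both KI samples. The sum of the 15 JmjC genes was 117.9 and 118.3 RPKM in WT and 118.4 and 114.6 RPKM in KI, with overlapping groups. The ratio of the methyltransferase sum to the JmjC sum was 2.34 and 2.31 in WT and 2.22 and 2.308 in KI, so KI replicate 2 was nearly level with WT.

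**Figure D4:**
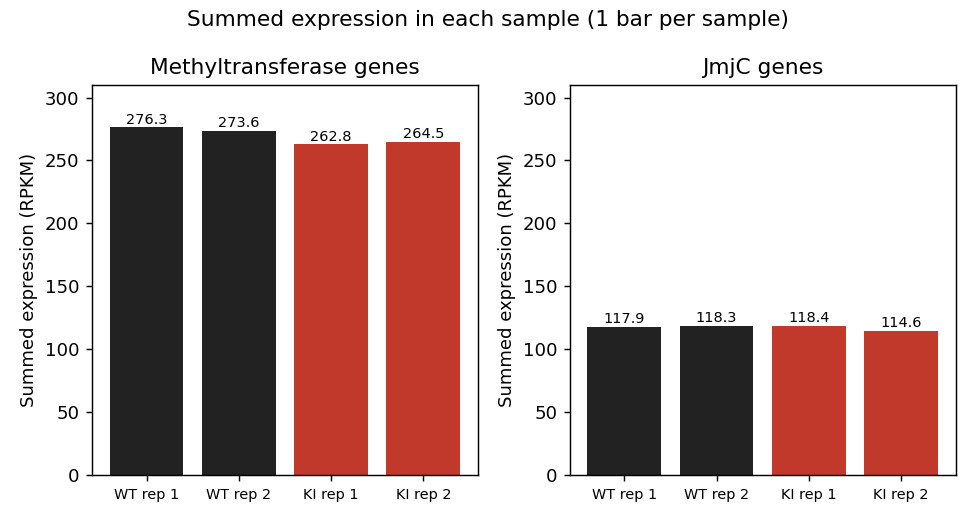
Summed RPKM of the 22 methyltransferase genes (left) and the 15 JmjC genes (right), with 1 bar per sample, WT in black and KI in red. The methyltransferase sums are 276.3 and 273.6 in WT and 262.8 and 264.5 in KI, and the JmjC sums overlap.

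The other genes of the pathway were taken from a list of 61 further methyltransferases, demethylases and complex subunits, of which 57 passed the filter. Of these, 0 passed the adjusted p of 0.1 with 1.2-fold in limma, and 2 had an unadjusted p under 0.05, against 9.62% of all genes tested. Prdm16, a PR domain regulator of neural stem cells and ependyma, was at 2.08 and 1.66 RPKM in WT and at 3.10 and 2.69 RPKM in KI (log2 fold change 0.44, SE 0.12, adjusted p = 0.463, limma). Setd6 was at 7.90 and 7.94 RPKM in WT and at 6.99 and 6.80 RPKM in KI (log2 fold change -0.18, SE 0.06, adjusted p = 0.506, limma). Both KI values lay below both WT values in 16 of the 57 (28.1%, against 18.1% of all genes tested) and above them in 10 (17.5%, against 24.0%). For the 16 other methyltransferases these counts were 5 and 3, for the 17 other demethylases and JmjC proteins 5 and 5, and for the 24 complex subunits 6 and 2. Hcfc1, a scaffold of H3K4 methyltransferase complexes, was at 23.5 and 25.1 RPKM in WT and 22.2 and 22.0 RPKM in KI (adjusted p = 0.544, limma), and Rbbp5, a core subunit shared by these complexes, was at 15.5 and 17.3 RPKM in WT and 14.2 and 14.9 RPKM in KI (adjusted p = 0.557, limma).

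The counting error behind these differences was worked out from the recovered reads. On the scale of the fit, log2(RPKM + 1), its standard error for the KI to WT difference ran from 0.02 to 0.12. The standard error of limma was larger than the counting error in 36 of the 37 genes, Kdm8 being the exception at 0.119 against 0.122. Exon bases were shared with another annotated gene in 17 of the 37 genes and exceeded 10% of the member's exon bases in 4 (Smyd2, Setd1a, Kdm3b and Suv39h1), whose values are uncertain for this reason.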

How the data were processed

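Hippocampal poly(A) RNA (2 samples of WT, 2 of Lsd1 KI) was sequenced in paired-end mode. The authors aligned the reads with GSNAP to mm10, used read pairs that mapped properly and to a single place, and deposited RPKM per Ensembl gene, in 1 file per sample. The counting tool is not given in the sources used here. Genes without reads are not listed and were given 0. The authors tested counts with edgeR. The deposited values are RPKM, so limma (version 3.58.1, R version 4.3.3), with a mean-variance trend, was applied to log2(RPKM + 1). A gene needed 0.5 RPKM or more in 2 or more samples, which 18436 genes met, with Benjamini-Hochberg adjustment over all of them. Fold changes on this scale understate those of genes with low RPKM.

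The call rule was an adjusted p under 0.1 and at least 1.2-fold. With 2 samples per group an exact permutation test cannot give a p under 0.333. Symbols, positions and exon lengths come from GENCODE M21 (GRCm38, the build of mm10). The totals of mapped reads (13414957, 8827967, 14381252 and 14949756 in WT 1, WT 2, KI 1 and KI 2) were recovered from the steps of the RPKM values and were used only to state precision. The limma code was tested on simulated data. The 37 genes, the other lists and the tests were chosen with earlier results of these data known. Values in every sample are given for the 10 members with the smallest limma p, the 3 highest, the 3 lowest and the paralog pairs. Alternatives changed the pseudocount, the filter, the scaling, the trend, the replicate block and the samples. Python 3.11.15 with pandas 2.3.3 was used for the other computations.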

Additional observations from a re-analysis of the deposited data

How the results depend on the processing

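The count of members past the call rule was 0, by limma, in all 12 fits beside the one reported and at 1.5-fold, and the smallest adjusted p of a member ran from 0.477 to 0.732 over them. For the other genes of the pathway that each fit tested, 57 of 61 as reported, this count was also 0. The count of members with an unadjusted p under 0.05, 1 as reported, was 0 with the replicate block, 0 without the mean-variance trend and 0 in each of the 4 fits without 1 of the samples. The count of the other genes of the pathway, 2 as reported, was 3 with median-of-ratios scaling. It was 1 with at least 1 RPKM in every sample, 1 with the replicate block and 1 after centring on long genes. It also varied with a sample left out. Same-numbered samples deviated with a Pearson correlation of -0.0249 across 18436 genes. With 2 samples per group, this value cannot tell whether the numbers pair the samples. The replicate block leaves the fold changes of this balanced design unchanged, so that it reversed the direction of 0 of the 37 genes.

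The median log2 fold change of the members, -0.060, was -0.0747 with median-of-ratios scaling, -0.0761 with quantile normalization and -0.0505 after centring on long genes (chosen after seeing the data). With a sample left out it ran from -0.0605 to -0.0362, that of the methyltransferases from -0.0825 to -0.0533 and that of the JmjC genes from -0.0671 to 0.0019. Members with both KI values below both WT values numbered 18 with either scaling (against 21% of all genes tested with median-of-ratios scaling and 22.9% with quantile normalization, where 21.2% and 19.2% lay above) and from 19 to 23 with a sample left out, and those above from 5 to 8. Signs near 0 turned for Setd7 (-0.012 with median-of-ratios scaling, -0.0057 with quantile normalization), Kdm5a (-0.015 with quantile normalization), Setdb1 (0.0018) and Kdm5b (0.0075), both after centring on long genes. With a sample left out, signs also turned, over log2 fold changes from -0.012 to 0.0953 for Ehmt2, -0.0461 to 0.0232 for Jmjd1c, -0.212 to 0.0098 for Kdm2b, -0.0132 to 0.0787 for Kdm3b, -0.0671 to 0.156 for Kdm4b, -0.00156 to 0.04998 for Kdm5a, -0.089 to 0.0847 for Kdm5b, -0.0697 to 0.00191 for Kdm6b, -0.136 to 0.0875 for Kdm8, -0.116 to 0.0188 for Phf8, -0.0515 to 0.0563 for Setd7, -0.0987 to 0.0829 for Setdb1 and -0.00704 to 0.259 for Suv39h2. A fit without a sample assumes that the lone sample of its group varies like the others.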
